A study of Mus musculus with 12 samples.

Results

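The Cyp2c genes encode cytochrome P450 enzymes of the liver, and 10 of them were examined: Cyp2c29, Cyp2c37, Cyp2c38, Cyp2c39, Cyp2c40, Cyp2c44, Cyp2c50, Cyp2c54, Cyp2c55 and Cyp2c70. They were chosen by name, by RefSeq identifier in the FPKM table (fragments per kilobase of transcript, scaled to the mapped fragments of the mouse). Earlier results of these mice were known when the genes were chosen. They make up 10 of the 24910 genes or unmatched transcripts in the table and 13 of its 34933 transcripts, of which 11 reached 1 FPKM in 2 or more of the 6 mice and entered the tests. Cyp2c44 is named Cyp2c23 in the RefSeq table used to match identifiers. A further 6 Cyp2c genes in the table (Cyp2c65, Cyp2c66, Cyp2c67, Cyp2c68, Cyp2c69 and the pseudogene Cyp2c53-ps) served for comparison.

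The livers came from male C57BL/6J mice in 3 groups of 2. Control mice, which the paper calls age-matched, ate standard chow for 28 weeks, starting at 8 weeks of age, and had no surgery. Sham and VSG mice ate a diet with 60% of its calories from fat, starting at 8 weeks of age, for 14 weeks before and 14 weeks after an operation, with 4 days of liquid diet in between. VSG (vertical sleeve gastrectomy) removed about 80% of the stomach, while the stomach of Sham mice was only isolated and pressed. RNA-seq and FAIRE-seq, which maps open chromatin, used the same livers. Sham and Control mice therefore differed in diet and in surgery, and these cannot be told apart. Whole liver was measured, so fewer cells of a type and less RNA per cell cannot be told apart either.

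Cytochrome P450 enzymes of the Cyp2c subfamily sit in the endoplasmic reticulum of hepatocytes and add oxygen to fatty acids, steroids, bile acids and drugs, with electrons passed on by the reductase encoded by Por. Several turn arachidonic acid and linoleic acid, both omega-6 fatty acids, into epoxides, which the hydrolase encoded by Ephx2 opens to diols. Many Cyp2c genes are activated by the nuclear receptors CAR and PXR and depend on hepatocyte factors such as HNF4A. Mice carry many more Cyp2c genes than humans, and most of them arose as neighbouring copies.

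In NCBIM37 (mm9), 14 Cyp2c genes lie side by side on chromosome 19 from 39081509 to 40261823, with Cyp2c55 at one end and Cyp2c70 at the other. Cyp2c44 stands alone on the same chromosome, on the minus strand, from 44079512 to 44103737. The cluster holds sets of near copies. The coding sequences of Cyp2c37 and Cyp2c50 are 96.1% identical, those of Cyp2c50 and Cyp2c54 95.2%, and those of Cyp2c38 and Cyp2c39 94.2%. Cyp2c40 is 98.1% identical to Cyp2c68 and 97.7% to Cyp2c67. Cyp2c29 is 89.5% identical to Cyp2c39, its closest relative. The RNA reads were 50 bases long, and the share of 50-base stretches of a transcript that also occur in transcripts of another gene shows how far reads could be split between copies. This share was 72.0% for Cyp2c40, 30.7% for Cyp2c50, 29.2% for Cyp2c37, 25% for Cyp2c54, 11.4% for Cyp2c39 and 7.45% for Cyp2c38. It was 0.530% for Cyp2c29 and 0 for Cyp2c44, Cyp2c55 and Cyp2c70. The level of Cyp2c40 is therefore uncertain, those of Cyp2c37, Cyp2c50 and Cyp2c54 are partly so, and those of Cyp2c29, Cyp2c44, Cyp2c55 and Cyp2c70 rest on sequence of their own.

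The stretches before the start sites are shown for 5 genes: Cyp2c29, Cyp2c37 and Cyp2c50, which had their lowest levels in Sham mice, Cyp2c38, which had its highest in VSG mice, and Cyp2c70, which was lower in Sham and VSG than in Control mice. Of these stretches 1, that of Cyp2c70, was touched by a peak of open chromatin. Each is the 250 bases before the RefSeq start (sequences from RefSeq, GRCm38.p6, strand of the gene), found once and without mismatch on chromosome 19 of NCBIM37. Capitals mark AGGTCA and AGTTCA, hexamers read by nuclear receptors, CAAAGTCCA, an element read by HNF4, and TATAAA, the TATA box, on either strand. The stretch lies at chr19:39361325-39361574 for Cyp2c29, chr19:40066664-40066913 for Cyp2c37 and chr19:40163919-40164168 for Cyp2c50, all on the plus strand, and at chr19:39537566-39537815 for Cyp2c38 and chr19:40261777-40262026 for Cyp2c70, both on the minus strand.
Cyp2c29: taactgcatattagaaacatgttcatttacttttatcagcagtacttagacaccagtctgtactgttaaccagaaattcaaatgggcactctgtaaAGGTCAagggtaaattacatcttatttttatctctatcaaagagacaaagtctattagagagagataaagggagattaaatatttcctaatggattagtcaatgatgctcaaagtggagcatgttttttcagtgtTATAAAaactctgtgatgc
Cyp2c37: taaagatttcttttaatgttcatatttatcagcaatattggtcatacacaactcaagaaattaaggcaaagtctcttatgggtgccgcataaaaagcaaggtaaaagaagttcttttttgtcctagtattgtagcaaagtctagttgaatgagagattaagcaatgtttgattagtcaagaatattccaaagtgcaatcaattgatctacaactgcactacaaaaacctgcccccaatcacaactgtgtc
Cyp2c50: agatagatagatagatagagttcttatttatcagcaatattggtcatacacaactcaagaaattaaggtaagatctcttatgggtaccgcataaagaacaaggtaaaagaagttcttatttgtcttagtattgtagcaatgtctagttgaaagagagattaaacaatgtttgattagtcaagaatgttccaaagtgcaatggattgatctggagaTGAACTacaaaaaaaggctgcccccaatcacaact
Cyp2c38: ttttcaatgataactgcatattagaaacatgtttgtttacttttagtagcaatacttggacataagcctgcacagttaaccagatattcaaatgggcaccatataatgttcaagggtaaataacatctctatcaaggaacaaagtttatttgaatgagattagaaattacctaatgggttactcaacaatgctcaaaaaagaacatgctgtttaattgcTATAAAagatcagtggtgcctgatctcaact
Cyp2c70: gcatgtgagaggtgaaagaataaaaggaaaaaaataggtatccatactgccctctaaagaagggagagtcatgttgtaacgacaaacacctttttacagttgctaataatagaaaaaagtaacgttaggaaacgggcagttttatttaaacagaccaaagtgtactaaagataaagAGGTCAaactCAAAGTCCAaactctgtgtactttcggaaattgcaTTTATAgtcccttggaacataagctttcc

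With the start site counted as 0, Cyp2c29 carried AGGTCA from −154 to −149 and TATAAA from −19 to −14. Cyp2c70 carried AGGTCA from −74 to −69, CAAAGTCCA from −64 to −56 and TATAAA, on the opposite strand, from −29 to −24. Cyp2c38 carried TATAAA from −31 to −26. Cyp2c50 carried AGTTCA, on the opposite strand, from −35 to −30, and Cyp2c37 carried none of the motifs. The windows of Cyp2c37 and Cyp2c50, 300 bases each with the first 50 of the transcript, were 89.5% identical over their aligned bases. RefSeq windows were matched for 8 of the 10 genes. TATAAA was found in 6 of these 8, against 13.6% of all 32851 RefSeq promoter windows of the same length, CAAAGTCCA in 2 (Cyp2c40 and Cyp2c70) against 0.475%, AGGTCA in 3 (Cyp2c29, Cyp2c39 and Cyp2c70) against 16.3% and AGTTCA in 3 (Cyp2c39, Cyp2c40 and Cyp2c50) against 14.0%. Cyp2c39 was counted over 2 RefSeq windows. Its AGGTCA lies only in the one that starts at 39421836, outside the annotated gene, and its AGTTCA and TATAAA only in the one that starts at 39585312. That TATAAA ran from −3 to 2, across the start. The TATAAA of Cyp2c40 ran from 40 to 45, inside the transcript, so neither lies before its start. Both strands were searched and no printed match overlapped another. Of the other motifs searched, TTGCNCAA (C/EBP) and ATCAATA (HNF6) were found in Cyp2c40 only, against 2.94% and 2.05% of all windows, and the HNF1 motif and TTCNNNGAA (STAT5) in none of the 8, against 0.122% and 8.30%. In Cyp2c40 TTGCNCAA ran from −5 to 2, across the start, and ATCAATA from 21 to 27, after it.

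In Control liver the family was abundant. The FPKM of the 10 genes summed to 1431 and 1497 in the Control mice, or 0.319% and 0.356% of all FPKM of the mouse. The sum was 513 and 197 in the Sham mice, or 0.0998% and 0.0459%. In the VSG mice it was 793 and 1454, or 0.163% and 0.319%. Both Sham mice lay below both Control mice and both VSG mice, while VSG mouse 2 reached the Control level and VSG mouse 1 lay between. The 6 genes above 100 FPKM in Control (Cyp2c29, Cyp2c37, Cyp2c50, Cyp2c54, Cyp2c44 and Cyp2c70) made up most of the sum. By mean FPKM in Control, Cyp2c29 came first (411 ± 102, SD, n = 2), followed by Cyp2c50 (263 ± 23.1), Cyp2c70 (226 ± 16.8), Cyp2c37 (190 ± 24.1), Cyp2c44 (172 ± 2.77) and Cyp2c54 (160 ± 24.6), all n = 2. The next was Cyp2c40 (37.5 ± 13.3), and Cyp2c38, Cyp2c55 and Cyp2c39 were under 3 FPKM. The Control mice overlapped between Cyp2c37 and Cyp2c44 and between Cyp2c44 and Cyp2c54, so these neighbours in the order did not differ beyond their spread, while those above them did not overlap.

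**Figure D1:**
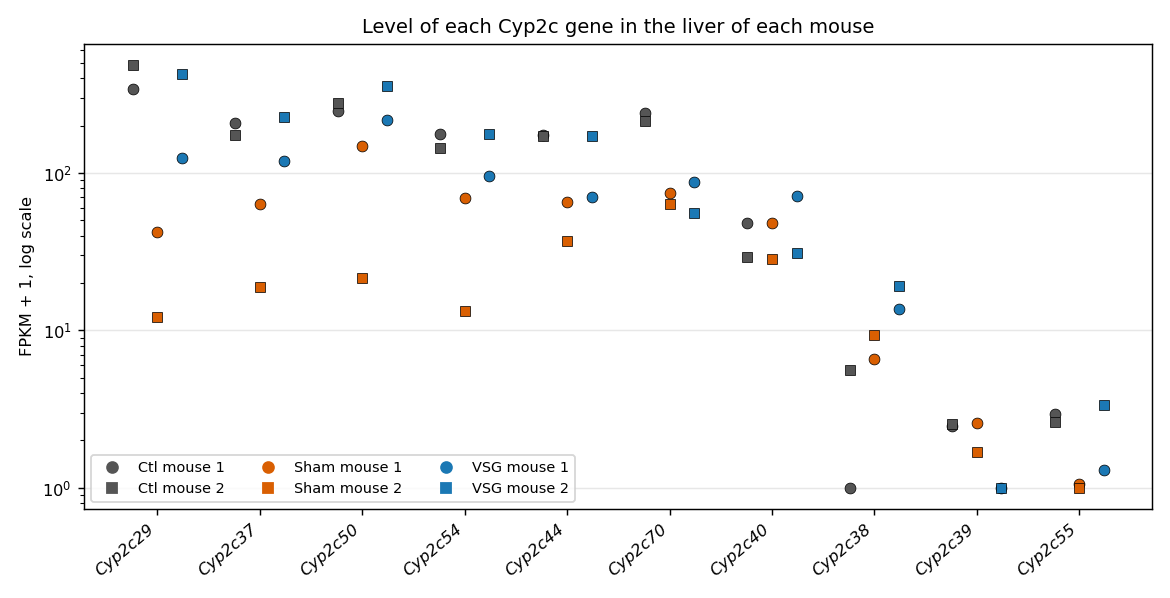
Level of the 10 Cyp2c genes in the liver of each mouse, as FPKM summed over the transcripts of a gene, plus 1, on a log scale. Each point is a mouse (circle, mouse 1, square, mouse 2), grey for Control (Ctl), orange for Sham and blue for VSG. For Cyp2c29, Cyp2c37, Cyp2c50, Cyp2c54 and Cyp2c44 the Sham points lie below both other groups, for Cyp2c70 the Sham and VSG points lie together below Control, and for Cyp2c40 the groups overlap.

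Cyp2c29, an epoxygenase of arachidonic acid, showed the widest range. Its FPKM was 339 and 483 in Control, 41.5 and 11.2 in Sham, and 123 and 424 in VSG mice. Both Sham mice lay below the other 4 mice, while VSG mouse 1 lay below both Control mice and VSG mouse 2 between them. Among all genes of a mouse, Cyp2c29 ranked 222 and 127 in Control, 1391 and 3259 in Sham, and 589 and 183 in VSG, with rank 1 the highest. On the log2(FPKM + 1) scale, Sham was lower than Control by a difference of −4.15 (SE 0.85, 95% interval −6.34 to −1.97, limma adjusted p = 0.242). VSG against Sham differed by 3.33 (SE 0.85, interval 1.14 to 5.52, limma adjusted p = 0.766), and VSG against Control by −0.82 (SE 0.85, interval −3.01 to 1.37). None of these passed the threshold, a false discovery rate of 10% over all 11511 transcripts tested. Only 0.417% of these transcripts had a larger absolute difference between Sham and Control, and 0.678% between VSG and Sham.

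Cyp2c37, Cyp2c50 and Cyp2c54, neighbours that oxidise arachidonic and linoleic acid, resembled each other. The FPKM of Cyp2c37 was 207 and 173 in Control, 62.5 and 17.8 in Sham, and 119 and 224 in VSG mice. For Cyp2c50, summed over its transcripts, it was 246 and 279 in Control, 148 and 20.6 in Sham, and 217 and 355 in VSG mice. For Cyp2c54 it was 177 and 142 in Control, 68.8 and 12.4 in Sham, and 94.1 and 175 in VSG mice. In each of the 3 genes both Sham mice lay below the other 4 mice, Sham mouse 2 lay far below Sham mouse 1, and VSG overlapped Control. The differences of Sham against Control in log2(FPKM + 1) were −2.46 (SE 0.66) for Cyp2c37, −2.46 (SE 0.85) for the main Cyp2c50 transcript, NM_134144, and −2.39 (SE 0.84) for Cyp2c54, with limma adjusted p = 0.373, 0.459 and 0.464. VSG against Sham gave 2.25, 2.34 and 2.08, with limma adjusted p = 0.847, 0.937 and 0.937. Sham mouse 2 decided much of these values. Without it Sham against Control was −1.58, −1.24 and −1.19 and VSG against Sham 1.37, 1.12 and 0.89, and without Sham mouse 1 they were −3.34, −3.67 and −3.58 and 3.13, 3.55 and 3.28, in the order Cyp2c37, Cyp2c50 and Cyp2c54. These 3 genes share sequence, as given above, and are not independent measurements.

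A further transcript of Cyp2c50, NM_001167875, was listed at 0 and 50.7 FPKM in Control, 48.3 and 2.91 in Sham, and 55.6 and 61.3 in VSG mice. Another, NM_001167877, was listed at 0 in all 6 mice. The Control mice differed so widely for NM_001167875 that the interval of Sham against Control ran from −4.67 to 6.57. An exact 0 can be a failed estimate in this table, since 24 of 105 transcripts of ribosomal proteins were listed at 0 in every mouse. The sum over transcripts is therefore the safer reading of Cyp2c50.

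Cyp2c44, an epoxygenase outside the cluster, had an FPKM of 174 and 170 in Control, 64.6 and 36.2 in Sham, and 69.7 and 170 in VSG mice (NM_001001446, with NM_001167905 listed at 0 throughout). Both Sham mice lay below both Control and both VSG mice, but VSG mouse 1 was only just above Sham mouse 1. Sham against Control differed by −1.81 in log2(FPKM + 1) (SE 0.52, limma adjusted p = 0.388), and VSG against Sham by 1.15 (SE 0.52, limma adjusted p = 0.937). The second value was 0.75 without Sham mouse 2, 1.79 without VSG mouse 1 and 0.52 without VSG mouse 2. Cyp2c55, known from colon and inducible in liver by activators of CAR and PXR, stood near 0, with 1.95 and 1.64 FPKM in Control, 0.0584 and 0 in Sham, and 0.304 and 2.34 in VSG mice. Both Sham mice lay below both Control mice, and both VSG mice above both Sham mice. Its differences were −1.44 and 1.02, with limma adjusted p = 0.468 and 0.937, and are compressed by the added 1. Leaving out VSG mouse 1 gave 1.70 for VSG against Sham, and leaving out VSG mouse 2 gave 0.34.

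Cyp2c70, which hydroxylates bile acids to muricholic acids in the mouse, differed from these genes after VSG. Its FPKM was 238 and 214 in Control, 73.3 and 62.6 in Sham, and 86.4 and 54.9 in VSG mice. The 4 mice on the fat diet lay below both Control mice and overlapped each other. Sham against Control differed by −1.72 in log2(FPKM + 1) (SE 0.29, limma adjusted p = 0.171), the smallest adjusted p of the family, and VSG against Control by −1.70 (SE 0.29, limma adjusted p = 0.271). VSG against Sham differed by 0.02, with an interval from −0.72 to 0.77, that is, less than the spread between mice. The ratio of Cyp2c70 to Cyp2c44 was 1.37 and 1.26 in Control, 1.14 and 1.73 in Sham, and 1.24 and 0.323 in VSG mice, so the VSG mice differed from each other in the balance of the pair.

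The remaining genes did not share the lower level in Sham. Cyp2c38, an arachidonic acid epoxygenase, was listed at 0 and 4.57 FPKM in Control, 5.59 and 8.32 in Sham, and 12.7 and 18.3 in VSG mice. The 3 groups did not overlap, with VSG highest. VSG against Control differed by 2.78 in log2(FPKM + 1) (SE 0.85, limma adjusted p = 0.493), and without Control mouse 1, the mouse listed at 0, by 1.55. Cyp2c39, which acts on arachidonic and retinoic acid, had 1.49 and 1.55 FPKM in Control, 1.58 and 0.685 in Sham, and was listed at 0 in both VSG mice. Cyp2c40 had 46.8 and 28.1 FPKM in Control, 47.2 and 27.4 in Sham, and 70.4 and 30.0 in VSG mice. Sham and Control mice spanned nearly the same range, VSG mouse 1 was the highest, and Sham against Control differed by −0.01 (interval −1.41 to 1.39). Its near copies also overlapped between Sham and Control. Cyp2c67 had 115 and 77.6 FPKM in Control, 131 and 68.0 in Sham, and 165 and 65.7 in VSG mice, and Cyp2c68 had 103 and 60.8, 69.8 and 44.8, and 112 and 64.1 in the same order. Cyp2c69 had 29.9 and 18.8 FPKM in Control and 32.9 and 0 in Sham and was listed at 0 in both VSG mice, while Cyp2c65, Cyp2c66 and Cyp2c53-ps did not pass the filter on low values.

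**Figure D2:**
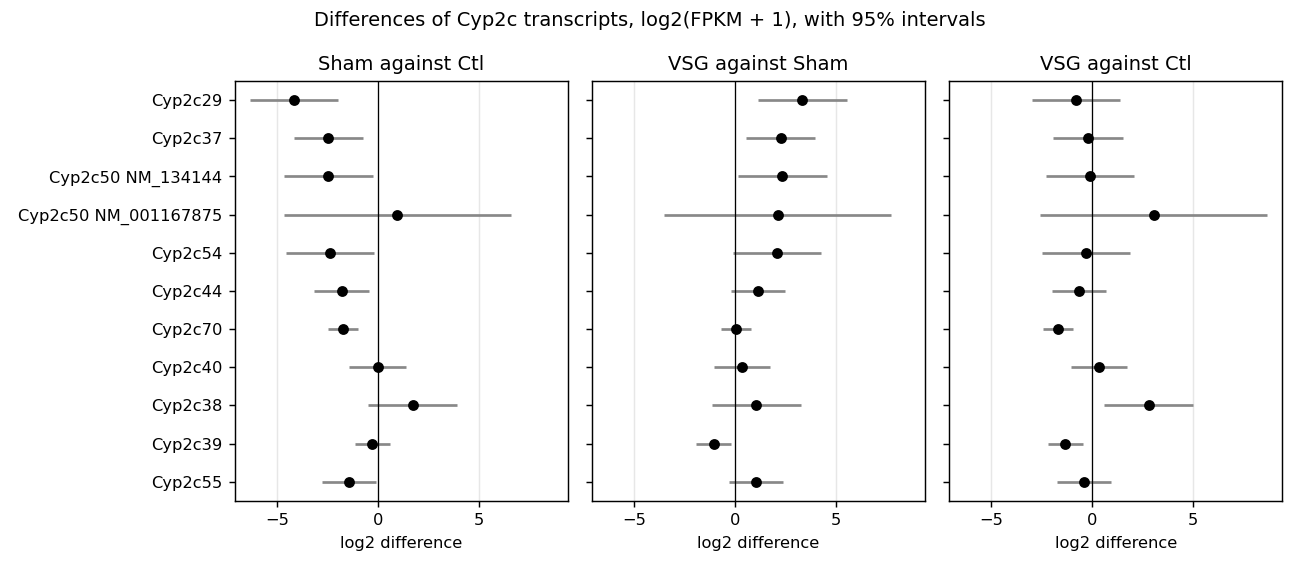
Difference of each Cyp2c transcript in log2(FPKM + 1) for Sham against Control, VSG against Sham and VSG against Control, with its 95% interval from limma (2 mice per group, residual spread shared over 6 mice). Cyp2c29 lies at −4.15, 3.33 and −0.82 in the 3 panels, Cyp2c70 at −1.72, 0.02 and −1.70, and the interval of Cyp2c50 NM_001167875 is the widest in each panel.

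Across the family, 0 of 11 transcripts passed the false discovery rate of 10% by limma in Sham against Control, VSG against Sham or VSG against Control. The same test passed 0.347%, 0.0782% and 0.217% of all 11511 transcripts. At an unadjusted p under 0.05, 7 of the 11 were lower in Sham than Control, against 4.49% of all transcripts, and none was higher, against 5.73%. For VSG against Sham 3 were higher, against 3.4%, and 1 was lower, against 1.56%. For VSG against Control 1 was higher, against 5.7%, and 2 were lower, against 2.62%. On FPKM summed per gene, 6 of the 10 genes were lower in Sham than Control, against 4.34% of all genes. For VSG against Sham 2 were higher, against 3.25%, and 1 was lower, against 1.6%. The summed Cyp2c50 was not among them. The design allowed no exact permutation test of a single gene to go below p = 0.333, with 2 mice against 2. By position alone, 7 of the 10 genes had both Sham mice below both Control mice (Cyp2c29, Cyp2c37, Cyp2c44, Cyp2c50, Cyp2c54, Cyp2c55 and Cyp2c70), which held for 20.4% of all 9869 genes that passed the filter, and 1 (Cyp2c38) had both above, against 25.4%. For VSG against Sham, 7 genes had both VSG mice above both Sham mice, against 18.5%, and 1 (Cyp2c39) had both below, against 9.78%. For VSG against Control, 1 gene (Cyp2c38) was above, against 33.7%, and 2 (Cyp2c39 and Cyp2c70) were below, against 14.8%. The counts of Cyp2c39 as lower in VSG, by p and by position, rest on a listed 0 in both VSG mice. An exact 0 can be a failed estimate, as given above, so no decrease is read from it. The comparisons share mice, so the counts are not independent of each other. The paper tested counts of reads instead, with DESeq2, and reports Cyp2c29, Cyp2c50 and Cyp2c55 as lower in Sham and reversed in VSG. It also reports that RT-qPCR in additional livers bore out changes after VSG for Cyp genes, Cyp2c55 among them.

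The median difference of the 10 genes, on FPKM summed per gene, was −1.76 for Sham against Control, 1.10 for VSG against Sham and −0.36 for VSG against Control. The median of all 9869 genes was 0.04, 0.08 and 0.13, so VSG mice stood slightly above Control over all genes. No test was made of the medians, since the genes were chosen with earlier results of these mice known. Leaving out Sham mouse 2 gave −1.30 for Sham against Control and leaving out Sham mouse 1 gave −2.02. Without VSG mouse 1, VSG against Control turned to 0.10, and without VSG mouse 2 it was −0.92. In FPKM + 1, the mice of a group differed by at least 2-fold in 1 of the 10 genes in Control, 4 in Sham and 4 in VSG, against 10.4%, 22.5% and 16.4% of all genes.

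**Figure D3:**
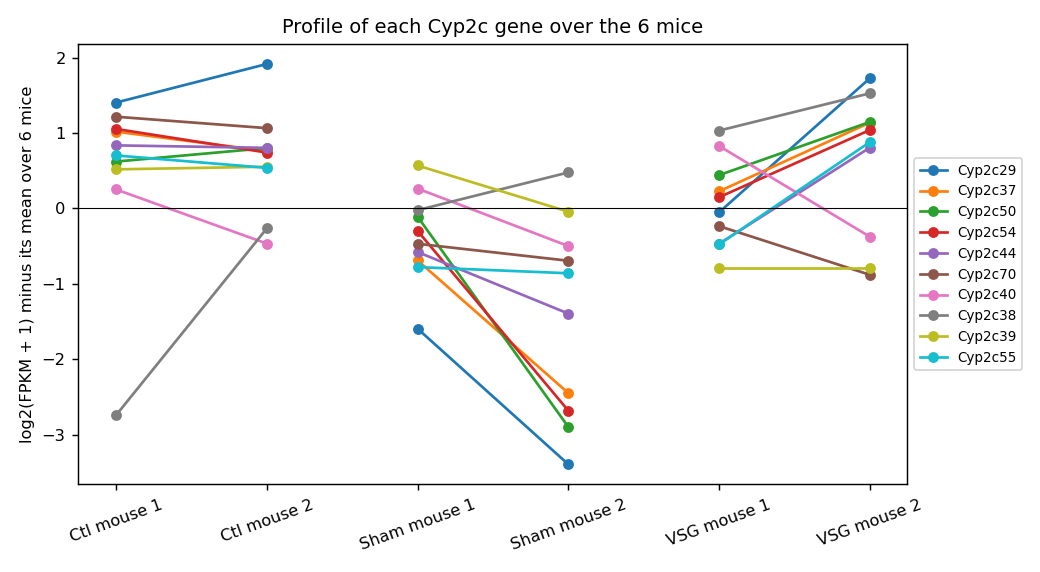
Profile of each Cyp2c gene over the 6 mice, as log2(FPKM + 1) minus its mean over the mice. Each colour is a gene and lines join the mice of a group, which have no order. Cyp2c29, Cyp2c37, Cyp2c50 and Cyp2c54 are lowest in Sham mouse 2, and Cyp2c70 stays low in both VSG mice.

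The make-up of the family also differed between the mice. Cyp2c29 held 23.7% and 32.3% of the summed FPKM of the 10 genes in Control, 8.08% and 5.68% in Sham, and 15.5% and 29.1% in VSG mice. Cyp2c40 held 3.27% and 1.88% in Control, 9.20% and 13.9% in Sham, and 8.88% and 2.06% in VSG mice. The ratio of Cyp2c29 to Cyp2c37 was 1.64 and 2.80 in Control, 0.663 and 0.631 in Sham, and 1.03 and 1.89 in VSG mice, which places the Sham mice below the other 4. By contrast the ratio of Cyp2c54 to Cyp2c37 stayed between 0.696 and 1.10 in all 6 mice. By the root mean square difference of profiles centred over the 6 mice, the closest pairs were Cyp2c37 and Cyp2c54 (0.194), Cyp2c50 and Cyp2c54 (0.248) and Cyp2c44 and Cyp2c55 (0.264). The first pairs share sequence, whereas Cyp2c44 and Cyp2c55 share no 50-base stretch with any other gene. Among all other genes, the profiles nearest to the mean of the family by the same measure were Pik3cb (0.095), 4930562F07Rik (0.159), Ugt2a3 (0.180), Dbt (0.181) and Acadm (0.183). Ugt2a3, a glucuronosyltransferase, had 112 and 111 FPKM in Control, 52.9 and 20.2 in Sham, and 78.3 and 89.0 in VSG mice. Acadm, a dehydrogenase of medium-chain fatty acids, had 167 and 156, 60.8 and 37.7, and 92.1 and 148. Pik3cb and 4930562F07Rik were under 4 FPKM in all mice and were listed at 0 in Sham mouse 2. An exact 0 can be a failed estimate, as given above, so nothing is read from their closeness.

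Genes around the Cyp2c enzymes were read from lists of known function, fitted on FPKM summed per gene. Of 13 tested genes of the epoxide pathway, from fatty acid desaturation to epoxide hydrolysis, 0 passed in any comparison, and their median differences were −0.09 for Sham against Control, 0.03 for VSG against Sham and 0.05 for VSG against Control. Ephx2, the hydrolase of fatty acid epoxides, had 471 and 471 FPKM in Control, 293 and 181 in Sham, and 436 and 477 in VSG mice. Ephx1, which opens epoxides of foreign compounds, had 162 and 158, 179 and 83.0, and 179 and 314 in the same order. Fads1, a desaturase on the way to arachidonic acid, had 67.5 and 104 in Control, 10.1 and 33.0 in Sham, and 84.2 and 40.8 in VSG mice, with VSG mouse 2 below both Control mice. Pla2g6, a phospholipase, had 9.76 and 11.7 FPKM in Control and 1.81 and 5.73 in VSG mice, and the Sham mice lay on both sides of Control. Of the cyclooxygenase and lipoxygenase enzymes, the other routes from arachidonic acid, 3 of 12 passed the filter on low values (Alox5ap, Lta4h and Ptgs1) and 0 passed the test.

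P450 enzymes also need electrons and haem. Of 12 genes tested for their supply, 0 passed, and the medians were −0.04, 0.38 and 0.44 for Sham against Control, VSG against Sham and VSG against Control. Por, the P450 reductase, had 122 and 178 FPKM in Control, 80.9 and 150 in Sham, and 101 and 288 in VSG mice. Alas1, the first enzyme of haem synthesis, had 140 and 190, 225 and 128, and 219 and 420. Cyb5a, another electron donor, had 1302 and 1119, 1864 and 626, and 1305 and 2160. For Por 1 Sham mouse lay within the Control range, and for Alas1 and Cyb5a 1 Sham mouse lay above it and 1 below. Fech, the last enzyme of haem synthesis, had 47.7 and 37.3, 33.2 and 23.6, and 34.3 and 60.4.

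Of other target genes of CAR and PXR, 22 were tested. Their medians were −1.30 for Sham against Control, 1.20 for VSG against Sham and −0.26 for VSG against Control. In Sham against Control 1 of the 22 fell and none rose, against 0.284% of all genes called in either direction. This was Cyp2b10, the classical target of CAR, with 8.46 and 8.81 FPKM in Control, 0.0389 and 0.00900 in Sham, and 0.135 and 0 in VSG mice (limma adjusted p = 0.0244 for Sham and 0.0288 for VSG against Control). It stayed near 0 in both VSG mice. Cyp3a11, a main target of PXR, had 1603 and 1293 FPKM in Control, 48.6 and 7.32 in Sham, and 100 and 828 in VSG mice, a difference of −6.15 for Sham against Control that did not pass (limma adjusted p = 0.273). Cyp2a5 had 297 and 255, 117 and 4.63, and 69.6 and 676. Abcc2, a canalicular transporter, was listed at 0 in Sham mouse 1 and had 17.1 to 58.7 FPKM in the other mice. Cyp2b9 went the other way, with 0.0562 and 0.0675 FPKM in Control, 8.43 and 0.324 in Sham, and 17.9 and 103 in VSG mice. In VSG against Control, with 0.284% of all genes called, Cyp2b10 was the 1 gene that fell. Cyp3a25 passed as higher, but it was listed at 0 in both Control mice and had 60.5 and 35.1 FPKM in Sham and 114 and 724 in VSG mice (limma adjusted p = 0.0963). A listed 0 can be a failed estimate, as above, so no rise is read from it. In VSG against Sham 0 of the 22 passed, and 0.0507% of all genes did. Cyp2b10 and Cyp3a25 are named because they passed, a choice made after their values were seen.

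Of 19 tested transcription factors that act on Cyp2c promoters, 0 passed in any comparison, with medians of −0.30, 0.31 and −0.08. The 4 with the largest differences between VSG and Sham held an exact 0. Rxra, the partner of CAR and PXR, was listed at 0 in Sham mouse 1 and had 65.0 to 86.7 FPKM in the other 5 mice. Hnf4a was listed at 0 in the same mouse and had 16.0 to 73.3 FPKM in the others. Nr3c1, the glucocorticoid receptor, was listed at 0 in Sham mouse 2 and Hlf in both Sham mice and VSG mouse 1. Apob, which hepatocytes secrete in quantity, was also listed at 0 in Sham mouse 1, so no decrease is read from these zeros.

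Male and female liver differ in several Cyp2c genes, and some are zoned within the lobule. Of 7 tested female-biased genes outside the family 0 passed, with medians of −1.71, 2.37 and 0.05. Acot3, Cyp2a4 and Cyp3a16 were lower in both Sham than in both Control mice, as with Cyp2a4 at 69.7 and 58.1 FPKM in Control, 27.6 and 1.07 in Sham and 15.9 and 152 in VSG mice. Another 2 of the 7 were higher in both Sham than in both Control mice. Over all genes, 20.4% were lower and 25.4% higher by this measure. Of 12 tested male-biased genes 0 passed, with medians of −0.88, 0.24 and −0.70. Slco1a1, an uptake transporter, had 85.8 and 83.9 FPKM in Control, 10.2 and 21.5 in Sham, and 54.0 and 40.7 in VSG mice. Of 14 pericentral genes 0 passed, with medians of 0.03, 0.60 and 0.17, and of 13 periportal genes 0 passed, with medians of −1.41, 0.30 and −0.60. Cyp1a2, a pericentral P450, had 213 and 168 FPKM in Control, 101 and 13.1 in Sham, and 103 and 270 in VSG mice. Cyp2f2, a periportal P450, had 730 and 657, 237 and 73.4, and 209 and 429. Both enzymes were lower in both Sham than in both Control mice, although the medians of their lists differed. They are named for their large difference between VSG and Sham and do not stand for their zones.

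Acute phase genes, which hepatocytes raise in inflammation, were highest where the Cyp2c genes were lowest. Their summed FPKM was 16436 and 17001 in Control, 37444 and 67437 in Sham, and 27977 and 11625 in VSG mice, over 16 of 22 listed genes found in the table. Sham mouse 2, the lowest in Cyp2c sum, was the highest, and of the VSG mice the one nearer to Control in Cyp2c sum was the lowest. Of the 14 genes tested 0 passed in any comparison, with medians of 0.98 for Sham against Control, −1.40 for VSG against Sham and 0.32 for VSG against Control. Orm2 had 178 and 180 FPKM in Control, 4769 and 7138 in Sham, and 2248 and 538 in VSG mice, and Lcn2 and Apcs were likewise higher in both Sham and both VSG mice than in both Control mice. Hamp, the hepcidin gene, was not, with 2052 and 2407, 1253 and 718, and 99.7 and 4.74. Of the 14 genes, 7 had both Sham mice above both Control mice, against 25.4% of all genes, and 1 had both below, against 20.4%. In VSG against Control 6 had both mice above, against 33.7%, and 5 had both below, against 14.8%.

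Markers of other cells also differed between the mice. The summed FPKM of hepatocyte markers stayed between 15475 and 20874, over 6 of 10 listed markers found in the table. Their median differences were nonetheless −1.31 for Sham against Control, 1.06 for VSG against Sham and −0.11 for VSG against Control. Kupffer cell markers (10) summed to 51.7 and 34.2 in Control, 133 and 122 in Sham, and 101 and 329 in VSG mice. Markers of sinusoidal endothelium (9) summed to 55.1 and 24.9, 13.3 and 9.04, and 41.0 and 36.6, lowest in the Sham mice as the Cyp2c genes were. Stellate cell markers (10) summed to 61.2 and 62.7, 24.3 and 36.1, and 69.2 and 96.0. Neutrophil markers (9, with Ly6g at 0 in all mice) summed to 14.1 and 5.33, 43.4 and 47.2, and 23.0 and 17.0, and cholangiocyte markers (7) ranged from 31.0 to 186. Of 7 intestinal markers Vil1, Cdx1, Cdx2 and Sis were at 0 in all mice, and the rest of the sum was nearly all Fabp2. The part of inflammation or of other cells in the Cyp2c differences was not tested.

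FAIRE-seq asked whether chromatin at these genes was open. The lists held 42204 peaks for Control, 52881 for Sham and 44539 for VSG, each pooled over 2 mice by the authors, so no list has a replicate and no difference between lists was tested. Over the cluster with 10 kb on each side, a window of 1200315 bp, the Control list held 3 peaks, the Sham list 5 and the VSG list 4, or 2.50, 4.17 and 3.33 per Mb, against 15.9, 19.9 and 16.8 per Mb over the genome. Of 2203 windows of that size, 34.4%, 35.1% and 35.7% held as few or fewer. The cluster is therefore poor in peaks, but many windows of its length held as few. The windows were taken without regard to their genes, expression or assembly gaps, so they do not show what is usual for expressed genes.

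**Figure D4:**
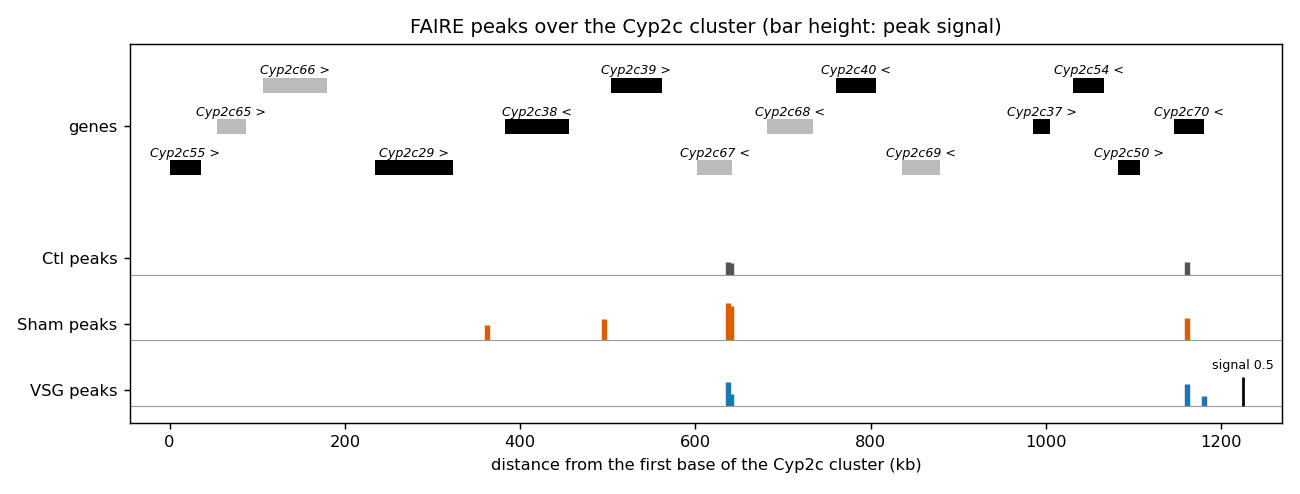
FAIRE peaks over the Cyp2c cluster by distance from its first base in kb. Bars in the top row are genes (black, the 9 examined genes of the cluster, grey, other Cyp2c genes, with > and < for the strand), and the lower rows show the peaks of the Control (Ctl), Sham and VSG lists, with height in proportion to the peak signal (scale bar, a signal of 0.5) and drawn wider than their length. All lists share 2 peaks in Cyp2c67 and 1 in Cyp2c70, Sham alone has 2 near Cyp2c38 and Cyp2c39, and VSG alone has 1 at the Cyp2c70 start.

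Few of the genes had a peak nearby, although their expression was high. Of 572 protein-coding genes with a mean of at least 100 FPKM in Control, 95.5% had a Control peak within 10 kb, 97% a Sham peak and 96.7% a VSG peak. Of the 6 Cyp2c genes at that level, 2 had such a peak in each list (Cyp2c44 and Cyp2c70). Within 1 kb of the annotated start, 88.5% of the 572 genes had a peak in Control, 89.2% in Sham and 88.5% in VSG, but 0, 0 and 1 of the 6 Cyp2c genes did. Over all protein-coding genes the share was 48.4%, 48.2% and 49.6%. Among all 10 Cyp2c genes, 2, 3 and 2 had a peak within 10 kb, against 66.6%, 69.3% and 67.6% of all protein-coding genes. No test of the difference was made, because neighbouring copies are not independent. In all, 14 genes of at least 100 FPKM had no peak within 10 kb in any list, and 4 of them were Cyp2c29, Cyp2c37, Cyp2c50 and Cyp2c54. The others were Hamp2, Mug1, Cfhr2, Cyp4a14, Aadac, Mug2, Ugt2b36, Ugt3a2, C6 and Gm4788.

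**Figure D5:**
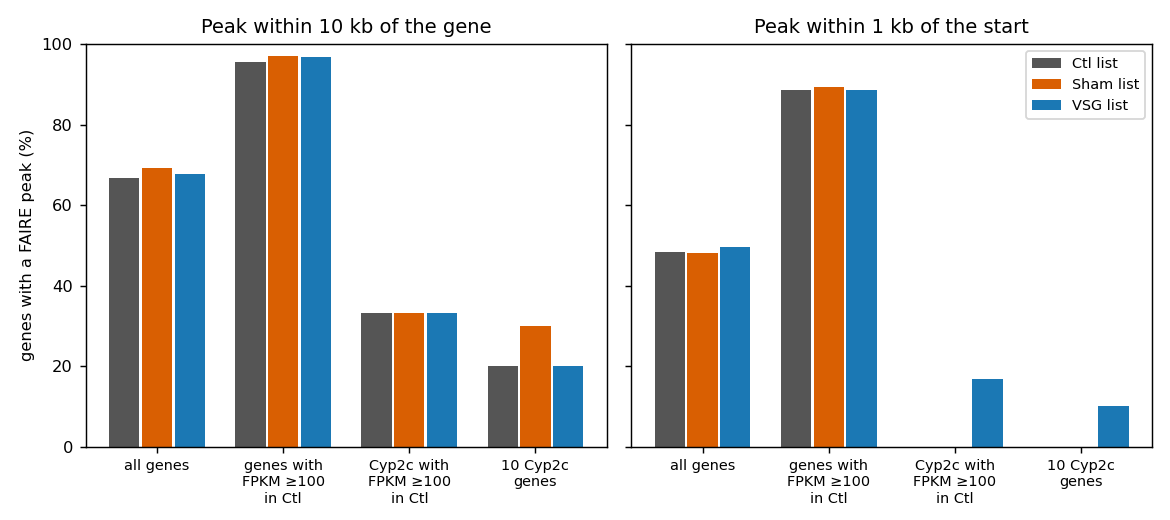
Share of genes with a FAIRE peak within 10 kb (left) and within 1 kb of the annotated start (right), in percent, for all protein-coding genes, genes of at least 100 FPKM in Control, the 6 Cyp2c genes at that level and all 10 Cyp2c genes. Bars are the Control (Ctl), Sham and VSG lists, each pooled over 2 mice. Highly expressed genes reach 95.5% to 97% on the left, while 2 of the 6 Cyp2c genes at that level have a peak in each list.

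The authors kept only read pairs with a single place in the genome, and the cluster is rich in repeats of itself. Of all 100-base words of the cluster, 14.2% occurred again in the genome, on either strand, against 3.98% of the chromosome, and the median over the 14 genes was 11.0%, against 0.310% for protein-coding genes of chromosome 19. Cyp2c29 held 16.6%, Cyp2c54 10.8%, Cyp2c50 7.90% and Cyp2c37 2.65%, while Cyp2c70 held 0.489% and Cyp2c44 0.677%. Within 1 kb on each side of the RefSeq start the share was 0 for Cyp2c29, Cyp2c38 and Cyp2c39, 1.65% for Cyp2c37, 8.50% for Cyp2c40 and 12.5% for Cyp2c55, and none of these had a peak there in any list. The part of repeats in the missing peaks was not tested.

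Cyp2c29 had no peak close by. From the gene as annotated (39315441 to 39405189, plus strand), the Control list had its nearest peak 309856 bp away, the Sham list 38010 bp and the VSG list 309881 bp. The Sham peak lies at chr19:39443199-39443423, between Cyp2c29 and Cyp2c38, 20623 bp from Cyp2c38, and 26.5% of the Sham list had a lower signal. Another peak of Sham alone lies at chr19:39576698-39576903, 8449 bp before Cyp2c39, with 47.2% of the list lower. The nearest peak to Cyp2c37, Cyp2c50 and Cyp2c54 in every list was the one in Cyp2c70. The nearest to Cyp2c40 lay 119230 to 119251 bp away, in Cyp2c67, and the nearest to Cyp2c55 75924 to 75965 bp away.

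Cyp2c70 carried a peak in its intron 3 in all lists, which merged to chr19:40242703-40243194, with 38.4%, 47.9% and 63.2% of the Control, Sham and VSG lists lower in signal. Another peak, in VSG alone, covered its start at chr19:40261764-40261974 and overlapped the annotated exon 1 by 60 bp. It takes in the AGGTCA, CAAAGTCCA and TATAAA shown above for Cyp2c70. It was among the weakest of its list, with 11.0% of VSG peaks lower, and union peaks of VSG alone made up 3.82% of 59246. The FPKM of Cyp2c70 overlapped between VSG and Sham mice, as given above.

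Cyp2c44 had the most peaks, 3 within 10 kb in Control, 4 in Sham and 3 in VSG. The strongest lies at chr19:44078723-44079135, 377 bp past the 3′ end of the gene, where 75.1% of Control, 90.7% of Sham and 72.6% of VSG peaks were lower. A peak at chr19:44096052-44096362 overlaps exon 2 by 163 bp, and one at chr19:44073662-44073967 lies 5545 bp past the gene, both in all lists. Sham alone had 1 more, in intron 1 at chr19:44101511-44102166, with 29.2% of the list lower. All 3 shared peaks ranked higher within the Sham list than within the Control and VSG lists, while the FPKM of the gene was lowest in Sham mice. This was not particular to Cyp2c44. The shared peaks in Cyp2c67, whose FPKM overlapped between the groups, also ranked highest in Sham. There 39.6%, 73.8% and 67.9% of the Control, Sham and VSG lists were lower for one peak, and 31.7%, 69.9% and 27.1% for the other. The shared peak in Cyp2c70 ranked highest in VSG. Union peaks of Sham alone made up 17.1% of all.

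None of the authors' deposited sites of variable accessibility lay in the cluster window. The paper nevertheless pictures the Cyp2c29 locus as an example of reversible expression and chromatin. Why the picture and the deposited lists differ there was not tested. The lists held 99 sites higher in Sham and 414 higher in VSG in the comparison of both, and 61 and 175 sites called reversible after a gain or a loss in Sham. The nearest site gained in Sham and reversible lies 31250 bp from Cyp2c70, at chr19:40293073-40293352, where Sham alone had a peak. Its sequence in NCBIM37 (plus strand) is shown because it is the listed site nearest to any of the 10 genes. Capitals mark TTCNNNGAA and AGTTCA, searched on both strands.
Sham site: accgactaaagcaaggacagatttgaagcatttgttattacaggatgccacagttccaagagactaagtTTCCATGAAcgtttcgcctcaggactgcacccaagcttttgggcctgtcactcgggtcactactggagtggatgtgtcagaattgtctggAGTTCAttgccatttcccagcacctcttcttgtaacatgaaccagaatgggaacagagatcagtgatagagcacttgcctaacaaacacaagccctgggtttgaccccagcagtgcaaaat
The nearest site higher in VSG lies 75949 bp before Cyp2c55, at chr19:39005252-39005560, and had a peak in every list.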

How the data were processed

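Livers of 6 mice, 2 a group, were measured by RNA-seq and FAIRE-seq. The authors aligned reads to mm9 and estimated FPKM per RefSeq transcript and mouse with Cufflinks. The labels give poly(A) selection of RNA and the methods of the study ribosomal depletion, which was not settled. The authors called FAIRE peaks and their signal with F-seq, and peaks were pooled over 2 mice with IDR. The deposited site lists give positions only. Separate deposited tables of the authors' own DESeq2 comparisons of RNA hold mean counts, log2 fold changes and p-values and were not used.

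The FPKM were fitted as log2(FPKM + 1) with limma 3.58.1 (R 4.3.3, variance trend, all 6 mice), for transcripts that reached 1 FPKM in 2 or more mice, with Benjamini-Hochberg adjustment over 11511 transcripts and a false discovery rate of 10%. Lists of genes used FPKM summed per gene. Identifiers were matched to RefSeq symbols for 34042 of 34933 transcripts. Relative depth, read from the steps of low values, ran from 0.676 to 1.56 of Control mouse 1, and the depth behind the peak lists is unknown. Nothing says more of the replicates than that they are separate mice, and p-values measure the spread between them. The main fit did not pair mice by replicate number. Peaks counted with an overlap of 1 bp or more, against GENCODE genes of NCBIM37. Coding sequences were aligned with Biopython 1.88. The fit, word counts and motif search were tested on simulated data. Named genes are the 10, the other Cyp2c genes, the 5 nearest profiles and, from each list, genes among the 4 with the largest absolute difference between VSG and Sham. Genes and lists were chosen with earlier results of these data known.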

Additional observations from a re-analysis of the deposited data

How the results depend on the processing

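Under 48 alternatives to the 3 counts of Cyp2c transcripts called (other pseudocounts, filters, scalings and groups fitted, the replicate block, and each mouse left out), 0 passed. The lowest adjusted p was 0.148 for Sham against Control, 0.316 for VSG against Sham and 0.177 for VSG against Control, and with a mouse left out 0.158, 0.203 and 0.236. Calls over all transcripts ranged from 0 to 109, 0 to 31 and 0 to 86, and with a mouse left out from 0 to 195, 0 to 60 and 0 to 41. With the replicate block 12, 0 and 9 transcripts were called. Deviations of same-numbered mice correlated by 0.118 (Control and Sham), 0.064 (Control and VSG) and 0.039 (Sham and VSG). The first lies above the limit of 0.1 set for pairing. With 2 mice a group, these values cannot decide whether the numbers pair mice.

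The median of the Cyp2c genes with a mouse left out ranged from −2.02 to −1.30 for Sham against Control, 0.88 to 1.75 for VSG against Sham and −0.92 to 0.10 for VSG against Control, the last reversed without VSG mouse 1. With all Cyp2c genes of the table the medians were −0.96, 0.47 and −0.11. VSG against Sham for Cyp2c70 turned to −0.0049 with upper quartile scaling and −0.17 with quantile normalization. With a mouse left out, Sham against Control ran from −0.58 to 0.034 for Cyp2c39, −0.39 to 0.37 for Cyp2c40 and −1.90 to 3.79 for Cyp2c50 NM_001167875. VSG against Sham ran from −0.26 to 0.95 for Cyp2c40 and −0.30 to 0.35 for Cyp2c70. VSG against Control ran from −1.71 to 0.066 for Cyp2c29, −0.66 to 0.25 for Cyp2c37, −0.27 to 0.94 for Cyp2c40, −0.55 to 0.31 for Cyp2c50 NM_134144, −0.75 to 0.14 for Cyp2c54 and −1.10 to 0.26 for Cyp2c55. The cause was not tested. Of 483 values of single transcripts 18 reversed, none past the threshold.

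Within 10 kb of the 10 genes there were 4 Control, 6 Sham and 5 VSG peaks. Counting the 50% of peaks with the highest signal gave 2, 3 and 3, gene bodies with 1 kb before them 2, 3 and 3, and a margin of 50 kb 18, 22 and 17. Peaks of at least 250 bp gave 2 in Control and 3 in VSG. Over the cluster, the highest 50% gave 0, 2 and 2, and peaks of at least 250 bp 3 in Sham. Depth and 1 pooled list a group limit what a missing peak says.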
